A study of Mus musculus with 8 samples.

Results

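The genes of complement C1q and of tissue-resident macrophages were followed in sciatic nerve, as a set of 9 genes: C1qa, C1qb, C1qc, Csf1r, Mrc1, Cd163, Lyve1, Pf4 and Cd14. Every probe carrying one of these gene names on the array was taken, and of 34821 gene names on the array these are 9. Of the 9 genes, 8 passed the filter on dim probes, among 15341 genes that did so. A probe passed when it was well above background in the nerve channel on at least 4 of the 8 arrays. The nerves came from 4 male SOD1G93A mice and 4 male wild-type mice, all 60 days old. SOD1G93A mice, which express a mutant form of human SOD1 and model amyotrophic lateral sclerosis, develop loss of motor neurons and paralysis later in life. The series text calls the wild-type mice non-transgenic. The transgene's promoter, the mouse line and the strain background are not given in the labels. On every array nerve RNA carried the dye Cy3, and 1 common reference pool carried Cy5. That pool was RNA of neonatal heart, liver and kidney, from wild-type and SOD1G93A animals together. No dye was swapped, so a difference between nerve and reference cannot be told apart from a dye effect.

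C1q is the recognition part of the classical complement pathway. Its A, B and C chains assemble into 1 molecule that binds antibody complexes, dying cells and debris, and macrophages are its main source in most tissues. Macrophages that live in a tissue depend on the CSF1 receptor and often carry the endocytic receptors encoded by Mrc1, Cd163 and Lyve1. In peripheral nerve, resident macrophages lie among the axons and in the outer sheaths, and they take up myelin and axon debris after injury.

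The probes that measured the C1q chains are distinct in sequence, which bears on whether the chains were measured separately. The probes of C1qa, at chr4:136452409-136452468, and of C1qb, at chr4:136436578-136436637, lie on the minus strand of mouse build mm9 per the array files. The Cd163 probe, at chr6:124270436-124270495 on the plus strand, is shown because it was the 1 member probe that gave no usable signal. Each sequence below is read from the array's design and is in lower case throughout.
C1qa probe: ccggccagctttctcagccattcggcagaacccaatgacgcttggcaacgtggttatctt
C1qb probe: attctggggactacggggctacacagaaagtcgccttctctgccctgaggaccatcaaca
Cd163 probe: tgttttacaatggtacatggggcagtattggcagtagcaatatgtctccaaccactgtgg
The C1qa and C1qb probes hold the same base at 11 of 60 positions, and their longest shared run on the same strand is 5 bases. The C1qc probe, at chr4:136445766-136445825 on the minus strand, shares 11 bases by position with the C1qa probe and 15 with the C1qb probe. No run longer than 6 bases is shared between any pair of these probes, on either strand.

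The C1q genes are neighbours on chromosome 4 in the order C1qb, C1qc and C1qa, with 0 other genes between them in the RefSeq table for GRCm38. RefSeq windows reaching 250 bases before and 50 after the start were at hand for 5 members, C1qb, C1qc, Mrc1, Pf4 and Cd163. The 250 bases before the start are shown for C1qb (chr4:136886201-136886450, minus strand, GRCm38.p6) and C1qc (chr4:136892915-136893164, minus strand), the C1q chains whose profiles over the arrays were closest. Capitals mark the letters GAGGAA on either strand (TTCCTC on the other), the core of the motif bound by PU.1, a transcription factor of macrophages.
C1qb upstream window: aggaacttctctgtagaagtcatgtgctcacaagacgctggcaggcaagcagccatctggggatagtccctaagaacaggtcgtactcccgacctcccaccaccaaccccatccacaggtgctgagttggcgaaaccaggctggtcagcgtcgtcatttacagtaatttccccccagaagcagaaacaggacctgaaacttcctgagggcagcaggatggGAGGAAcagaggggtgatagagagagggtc
C1qc upstream window: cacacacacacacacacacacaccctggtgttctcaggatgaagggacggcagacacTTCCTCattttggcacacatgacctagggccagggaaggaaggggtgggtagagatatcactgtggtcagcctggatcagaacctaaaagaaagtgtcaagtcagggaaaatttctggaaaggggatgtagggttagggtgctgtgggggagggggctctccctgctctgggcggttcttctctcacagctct
In the full windows of 300 bases, GAGGAA was found on either strand for 4 of the 5 members (C1qb, C1qc, Mrc1 and Pf4) and in 28.3% of all 32851 windows. TTGCNNAA, a form of the motif of C/EBP factors, was found for 1 of the 5 (Pf4) and in 10.8% of all windows. The motifs do not overlap in their letters, and a match describes the letters only.

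On each array the nerve channel was well above background for 35.5% to 41.7% of 59305 spots, controls left out, and for 0 was it saturated. SOD1G93A replicate 1 and wild-type replicate 1 stood apart from the other arrays. They lay at -30.3 and 33.7 on the first principal component, which held 36.4% of the variance, with the other 6 arrays between -10.8 and 14.7. Their median Cy3 intensities were the lowest, 377.9, and the highest, 735.5, against 536 to 613.2 on the other 6. The members' results are therefore also given on the 6 arrays numbered 2 to 4, as are those of lists whose direction turned there. All 8 arrays shared 1 slide and 1 scan, with each genotype in its own row of positions, so genotype and place on the slide cannot be told apart. Of 12 Schwann cell genes, 11 were well above background in Cy3 on all 8 arrays. Of 28 genes of macrophages in general, 21 were.

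C1qa, C1qb and C1qc were among the genes with a high nerve signal relative to the neonatal organs in both genotypes. Their log2 ratios of nerve over reference averaged 1.28, 1.47 and 1.30 over the 8 arrays. Of all 15341 genes, 90.2%, 92.3% and 90.5% had a lower mean ratio. Csf1r, on its brightest probe, averaged 1.30, above 90.5% of genes. Mrc1 averaged 0.39 and Cd14 0.09, above 67.9% and 50.6% of genes. Pf4 averaged -0.32, above 28.9%. Lyve1 averaged -3.12, and only 0.821% of genes had a lower ratio. The C1q chains and Csf1r were thus on the nerve side of the distribution, Cd14 in its middle and Lyve1 far on the reference side.

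**Figure D1:**
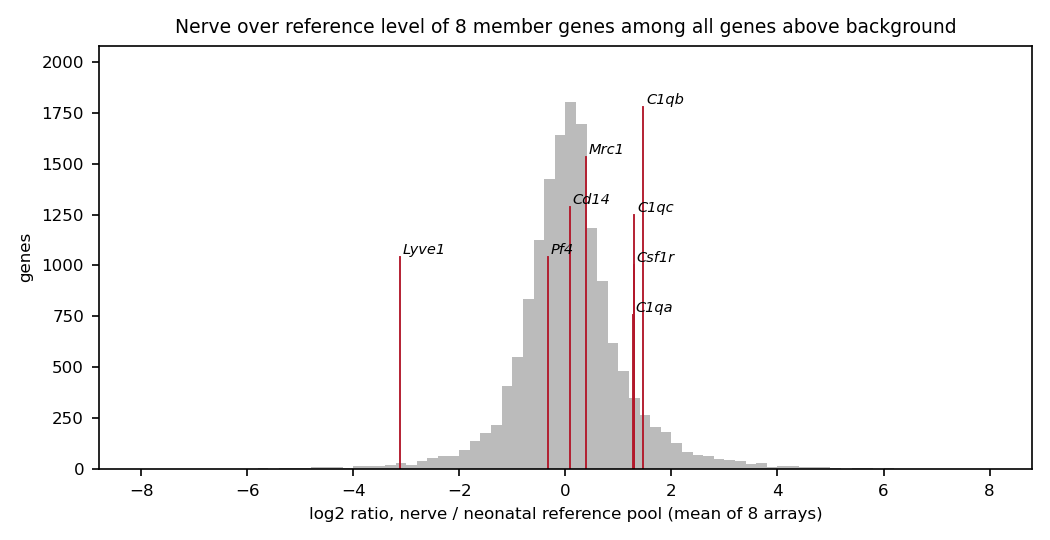
Histogram of the log2 ratio of nerve (Cy3) over the neonatal reference pool (Cy5), as the mean of 8 arrays, for the 15341 genes above background, with the count of genes on the vertical axis. Red lines mark the 8 members: C1qb at 1.47, C1qc, Csf1r and C1qa between 1.28 and 1.30, Mrc1 at 0.39, Cd14 at 0.09, Pf4 at -0.32 and Lyve1 at -3.12 (line heights only separate the names).

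The comparison of SOD1G93A with wild-type nerves asked whether these macrophage transcripts differ at an age that the title of the series calls presymptomatic. No member was called. Of all 15341 genes, 0.163% were called at an adjusted p under 0.05 (limma, Benjamini-Hochberg over all genes), and 0 of the 8 members were. By direction, 0.0717% of all genes were called as higher in SOD1G93A and 0.0913% as lower. Before adjustment, 0 of the 8 members and 11.4% of all genes had a p under 0.05. In 0 of the 8 did the groups fail to overlap, against 3.67% of all genes with SOD1G93A higher and 4.33% with it lower. Differences were positive for 6 of the 8 members, against 45.3% of all genes. The median difference over the members was 0.10, and that over all genes -0.02. The arrays come from whole nerve, so fewer cells of a type and less RNA per cell cannot be told apart in any of these values.

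**Figure D2:**
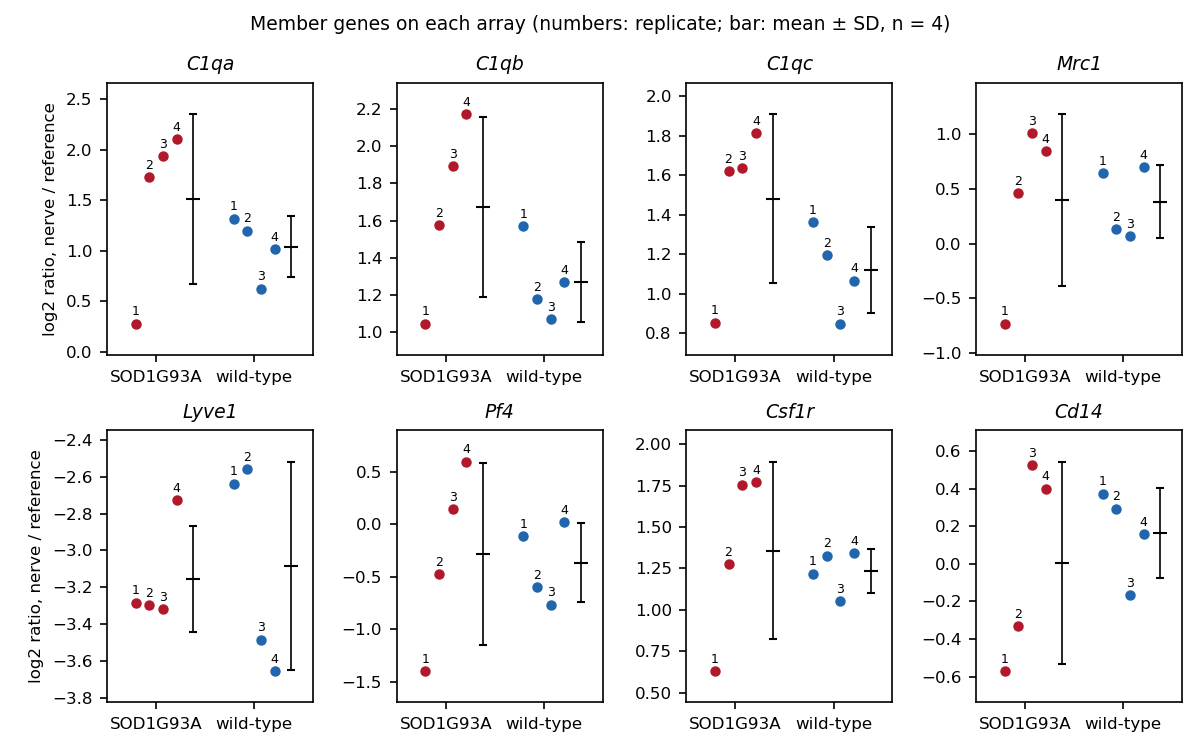
Log2 ratio of nerve over reference (vertical axes, a scale for each gene) for 8 members, with the 4 SOD1G93A arrays in red on the left and the 4 wild-type arrays in blue on the right of each panel. Numbers give the replicate and black bars the mean ± SD (n = 4), and SOD1G93A replicate 1 is the lowest of its group in every panel except that of Lyve1.

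C1qa, which encodes the A chain, had Cy3 intensities of 448.5, 1763.5, 1974.1 and 2544.8 in SOD1G93A replicates 1 to 4, against 1822.8, 1121.8, 798.7 and 1053.2 in wild-type replicates 1 to 4. After normalization its log2 ratios were 0.28, 1.73, 1.94 and 2.10 in SOD1G93A, against 1.32, 1.20, 0.63 and 1.02 in wild-type. SOD1G93A replicates 2 to 4 lay above every wild-type array and replicate 1 below every one, so the groups overlap. The means were 1.51 ± 0.84 in SOD1G93A and 1.04 ± 0.30 in wild-type (SD, n = 4 each), and the difference was 0.47 ± 0.36 (SE, limma adjusted p = 0.65). Its 95% interval ran from -0.35 to 1.29. The Cy5 intensity of the common pool stayed between 278.4 and 338.6 on the 8 arrays, so the low value of SOD1G93A replicate 1 came from the nerve channel.

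C1qb, which encodes the B chain, gave log2 ratios of 1.05, 1.57, 1.89 and 2.17 in SOD1G93A, against 1.57, 1.18, 1.07 and 1.27 in wild-type. SOD1G93A replicate 1 was the lowest of all 8 arrays and replicates 3 and 4 the highest, while SOD1G93A replicate 2 and wild-type replicate 1 were level at this precision. The means were 1.67 ± 0.48 in SOD1G93A and 1.27 ± 0.21 in wild-type (SD, n = 4 each). The difference was 0.40 ± 0.22 (SE, limma adjusted p = 0.529), with a 95% interval from -0.10 to 0.90. Its Cy3 intensities ran from 435.9 to 1495.8 in SOD1G93A and from 604.6 to 1137.6 in wild-type nerves, beside 138.9 to 172.4 in Cy5.

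C1qc, which encodes the C chain, gave log2 ratios of 0.85, 1.62, 1.64 and 1.81 in SOD1G93A, against 1.36, 1.20, 0.85 and 1.07 in wild-type. SOD1G93A replicates 2 to 4 again lay above all wild-type arrays, and replicate 1 lay beside wild-type replicate 3 at the bottom. The difference was 0.36 ± 0.20 (SE, limma adjusted p = 0.53), with a 95% interval from -0.09 to 0.82. This probe was printed in 10 spots on each array, which measures the error between spots of 1 hybridization. Error from extraction, labelling and hybridization is not part of it. Between 8 and 10 spots per array passed the flags, and their SD within an array was 0.036 to 0.065. The spots of SOD1G93A replicate 1 ran from 0.73 to 0.90 and those of SOD1G93A replicate 2 from 1.59 to 1.69. The spread between nerves of 1 genotype was thus much larger than the spread between spots, 0.43 in SOD1G93A and 0.22 in wild-type (SD, n = 4 each).

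**Figure D3:**
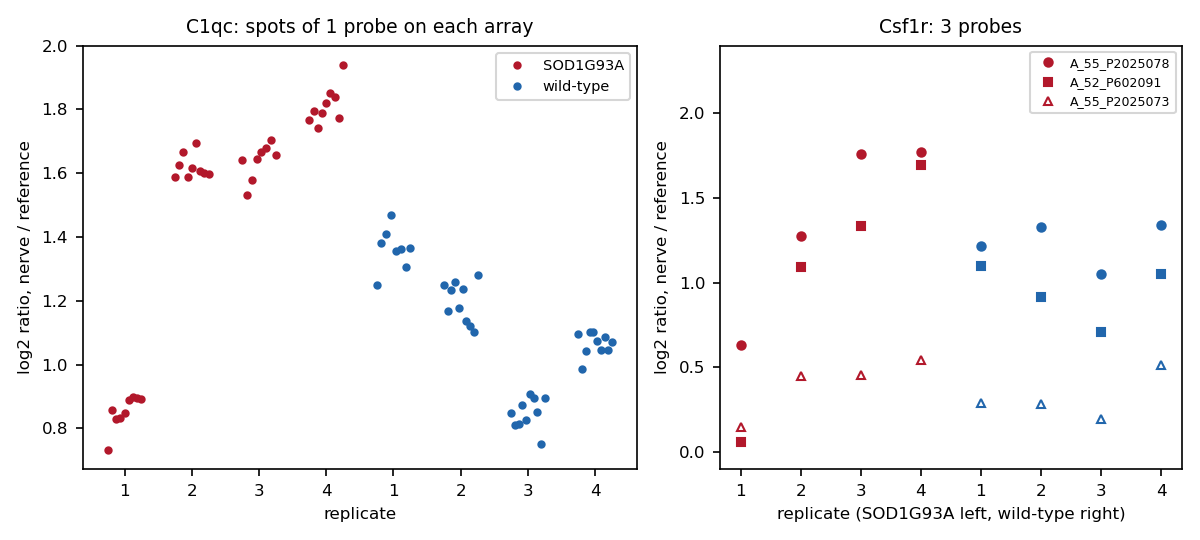
Left, log2 ratio of nerve over reference for each spot of the C1qc probe by array (horizontal offsets only separate spots), with SOD1G93A in red and wild-type in blue. Right, the 3 Csf1r probes, each with its own symbol, on the same arrays. The C1qc spots of an array stay together (SD 0.036 to 0.065), while arrays of 1 genotype lie apart.

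Csf1r encodes the receptor for CSF1 and IL-34 on which macrophages depend. Its brightest probe had Cy3 intensities of 2981.2, 7494.6, 8947.8 and 9729.6 in SOD1G93A, against 8353.4, 6723.4, 5997.8 and 7259.5 in wild-type. The log2 ratios were 0.63, 1.28, 1.76 and 1.77 in SOD1G93A, against 1.22, 1.33, 1.05 and 1.34 in wild-type. SOD1G93A replicates 3 and 4 were above every wild-type array, replicate 2 within the wild-type range and replicate 1 below it. The difference was 0.12 ± 0.23 (SE, limma adjusted p = 0.864). The other 2 probes gave differences of 0.10 ± 0.30 and 0.08 ± 0.11 (SE), so all 3 had a small positive difference within its error. The probes disagree on the level relative to the reference: the mean log2 ratios of the other 2 were 0.99, above 86.1% of genes, and 0.36, above 66.3%. These 2 probes were much dimmer, with Cy3 intensities of 177.9 to 661.9 and of 209.7 to 396.6 over the 8 arrays. The part of the dim signal in this disagreement was not tested. Which probe best stands for the gene was not tested.

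Mrc1 encodes the mannose receptor CD206, an endocytic receptor of resident macrophages, and its probe lies at chr2:14253273-14253332 on the plus strand of mm9. Cy3 intensities ran from 347.4 to 1421.7 in SOD1G93A and from 806 to 1613.8 in wild-type nerves. The log2 ratios were -0.73, 0.46, 1.01 and 0.85 in SOD1G93A, against 0.64, 0.13, 0.07 and 0.70 in wild-type. SOD1G93A replicate 1 was the lowest of the 8 and replicates 3 and 4 the highest. The SD was 0.79 in SOD1G93A and 0.33 in wild-type (n = 4 each), and the difference was 0.01 ± 0.35 (SE, limma adjusted p = 0.994). Its 95% interval ran from -0.78 to 0.80. The sign of this difference turned in 10 of 21 alternative settings.

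Cd163, the receptor for haptoglobin-bound haemoglobin, was not well above background on any of the 8 arrays. Its Cy3 intensities were 131.4, 156.9, 142.6 and 143.6 in SOD1G93A, against 144.3, 159.6, 147.4 and 148.5 in wild-type. Cy5 stood at 21.4 to 25.7, against a local background of 17 to 19. Neither nerve nor reference therefore gave a usable level with this probe, and no ratio is read from it. The signal of 1 probe does not show whether the gene is expressed.

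Lyve1 encodes a hyaluronan receptor of lymphatic endothelium, of liver sinusoidal endothelium and of some resident macrophages. Its probe lies at chr7:117994171-117994230 on the minus strand of mm9. Cy3 intensities were 191.7, 332.8, 294.6 and 441.3 in SOD1G93A, against 360.5, 390.8, 298.8 and 260.3 in wild-type, all well above background. The log2 ratios were -3.28, -3.30, -3.32 and -2.73 in SOD1G93A, against -2.64, -2.56, -3.49 and -3.66 in wild-type. Wild-type nerves thus made a higher pair (replicates 1 and 2) and a lower pair, and every SOD1G93A value lay between them. The difference was -0.07 ± 0.26 (SE, limma adjusted p = 0.934). The Cy5 signal of the common pool was 985.5 on wild-type replicate 1 and 1477.2 to 1810.4 on the other 7 arrays. With the Cy3 channel alone the difference was 0.05.

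The marker lists show what else was in reach of the Lyve1 probe. Of 9 genes of liver Kupffer and sinusoidal cells, 7 were well above background on all 8 arrays in the reference channel and 2 in the nerve channel. Stab2, Clec4g, Oit3 and Cd5l were above background on all arrays in the reference and on none in the nerve. The lymphatic endothelial genes Prox1 and Flt4 were not well above background in nerve on any array. The 7 lymphatic genes that passed had scores of -0.40 to 0.27 in SOD1G93A and -0.18 to 0.50 in wild-type nerves. A score is the mean over a list's genes of the log2 ratio, each gene centred on its mean over the 8 arrays. The part of these cells in the Lyve1 values was not tested.

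Pf4 encodes platelet factor 4, a chemokine of platelets that many resident macrophages also express, and its probe lies at chr5:91202275-91202334 on the plus strand of mm9. Cy3 intensities were 966.1, 3081.1, 3929.7 and 5482.4 in SOD1G93A, against 4280, 2334.4, 2432.9 and 3996.8 in wild-type. The log2 ratios were -1.40, -0.47, 0.14 and 0.60 in SOD1G93A, against -0.11, -0.60, -0.77 and 0.02 in wild-type. SOD1G93A replicate 1 was the lowest of the 8 arrays and replicates 3 and 4 the highest, so the groups overlap. Its SD of 0.86 among SOD1G93A nerves was the highest of the 8 measured members, with 0.38 in wild-type (n = 4 each). The difference was 0.08 ± 0.38 (SE, limma adjusted p = 0.951). Of 14 genes of platelets and megakaryocytes, 9 were not well above background in nerve on any array, Gp1ba, Gp9 and Clec1b among them. In the reference channel 11 of the 14 were above background on all 8 arrays. These 9 platelet genes were thus below the detection limit in nerves where Pf4 was bright.

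Cd14 encodes the co-receptor that hands bacterial lipopolysaccharide to Toll-like receptor 4. Its Cy3 intensities ran from 240.2 to 744.6 in SOD1G93A and from 463.8 to 870 in wild-type nerves. The log2 ratios were -0.57, -0.33, 0.52 and 0.40 in SOD1G93A, against 0.37, 0.29, -0.17 and 0.16 in wild-type. SOD1G93A replicates 1 and 2 lay below every wild-type array and replicates 3 and 4 above every one. The difference was -0.16 ± 0.25 (SE, limma adjusted p = 0.831). Cd14 and Lyve1 were the members with a negative difference.

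Leaving out the arrays that stood apart made the differences of most members larger. These arrays were picked from the same data. For every C1q chain they held the lowest SOD1G93A and the highest wild-type value, so leaving them out widens the C1q differences by construction. The calls on the remaining arrays are therefore no independent support for a difference. On the 6 arrays numbered 2 to 4, 1.53% of all genes were called, and 2 of the 8 members, C1qa and C1qc, were called as higher in SOD1G93A. C1qa then averaged 1.92 in SOD1G93A and 0.95 in wild-type, a difference of 0.98 ± 0.16 (SE, limma adjusted p = 0.0357). C1qc averaged 1.69 in SOD1G93A and 1.04 in wild-type, a difference of 0.65 ± 0.11 (SE, adjusted p = 0.0343). C1qb differed by 0.71 ± 0.15 (SE, adjusted p = 0.0779) and was not called. All 3 chains had no overlap between groups there, as 11% of all genes had with SOD1G93A higher.

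Among the other members on these 6 arrays, Pf4 differed by 0.54 ± 0.30, Mrc1 by 0.47 ± 0.20 and Csf1r by 0.36 ± 0.15 (SE). Lyve1 differed by 0.12 ± 0.30 and Cd14 by 0.10 ± 0.23 (SE). All 8 differences were positive, none of these 5 was called, and their adjusted p-values ran from 0.285 for Csf1r to 0.871 for Lyve1. Without SOD1G93A replicate 1 alone, 0 of the 8 members and 1.17% of all genes were called. C1qa then differed by 0.88 ± 0.17 (SE, adjusted p = 0.0569) and C1qc by 0.57 ± 0.12 (SE, adjusted p = 0.0814). With all 8 arrays and a weight for each array, C1qa (adjusted p = 0.0447) and C1qc (adjusted p = 0.0357) were called among 2.69% of all genes. SOD1G93A replicate 1 had a weight of 0.17 there and the other arrays 0.533 to 2.17. Over the 21 alternatives the adjusted p ranged from 0.0357 to 1 for C1qa, from 0.0593 to 1 for C1qb and from 0.0343 to 1 for C1qc. Leaving out SOD1G93A replicate 4 moved the values the other way, to 0.275 for C1qa, 0.233 for C1qb and 0.252 for C1qc. Without wild-type replicate 3 they were 0.334, 0.332 and 0.273. The size of the C1q differences thus depended on single arrays, in both directions for SOD1G93A arrays. Members were called in 2 of 21 alternatives, array weights and the 6 arrays.

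**Figure D4:**
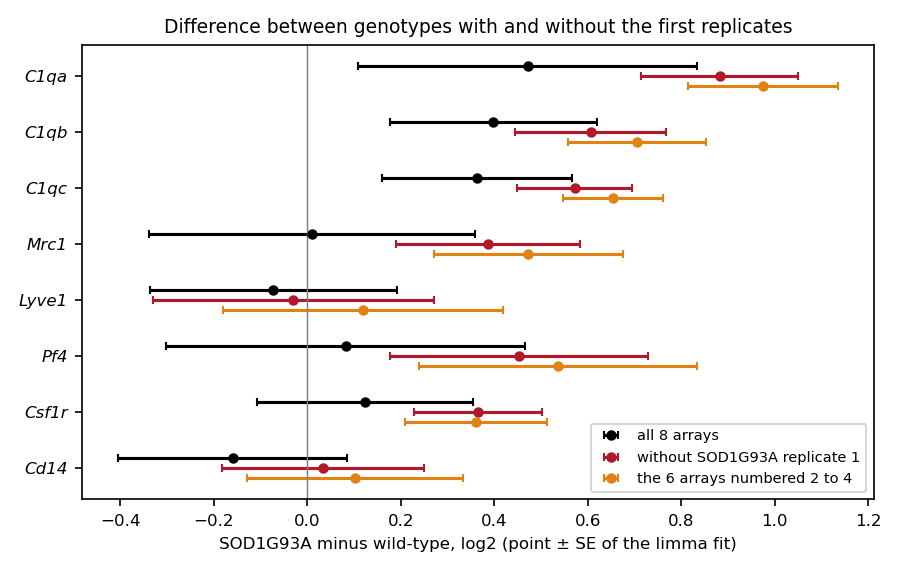
Difference in log2 ratio, SOD1G93A minus wild-type, for 8 members (points, with bars of ± 1 SE of the limma fit), on all 8 arrays, after leaving out SOD1G93A replicate 1, and on replicates 2 to 4 of each genotype. C1qa differs by 0.47, 0.88 and 0.98 in these settings, while Lyve1 stays near 0 in all of them.

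The members were not equally alike in their profiles over the arrays. In every member but Lyve1, SOD1G93A replicate 1 was the lowest of its group and replicates 3 and 4 were the highest of all 8 arrays. Likeness was measured as the root mean square difference between a pair's log2 ratios over the 8 arrays, each gene centred on its mean. Ranges were not scaled, so a wider range also counts as distance. The closest pairs were C1qb with C1qc at 0.127 and Mrc1 with Pf4 at 0.196, and the most distant were Lyve1 with Mrc1 and with Pf4, both at 0.622. Csf1r lay 0.207 from C1qc and 0.208 from C1qb. C1qa lay farther from its fellow chains, at 0.265 from C1qc and 0.283 from C1qb, and its range over the arrays was wider.

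Outside the members, the 5 genes most like the mean profile of the C1q chains were Vav1 at 0.0938, Fcer1g at 0.0957, Tyrobp at 0.117, Ethe1 at 0.128 and Emr1 at 0.129. The median over the 15325 genes complete on all arrays was 0.454. Vav1 encodes a signalling protein of blood cells, Fcer1g and Tyrobp adaptors of immune receptors, Ethe1 a mitochondrial sulfur dioxygenase and Emr1 a surface receptor used to mark mouse macrophages. Fcer1g, for example, had log2 ratios of -0.35, 0.62, 0.64 and 0.98 in SOD1G93A, against 0.28, -0.16, -0.31 and 0.01 in wild-type. None of the 5 was called on all 8 arrays, with adjusted p-values from 0.434 for Emr1 to 0.699 for Ethe1. Since these 5 genes were chosen for their likeness to the C1q chains on the same arrays, their differences between genotypes are no independent support.

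The wider group of macrophage genes gave a median difference of 0.31 over the 24 genes that passed, 18 positive and 6 negative, with 0 called on all 8 arrays. Its scores were -0.28, 0.30, 0.29 and 0.47 in SOD1G93A, against 0.00, -0.15, -0.38 and -0.25 in wild-type, so SOD1G93A replicate 1 alone fell among the wild-type values. Trem2, a lipid and debris receptor of macrophages, differed by 1.26 ± 0.19 (SE, limma adjusted p = 0.0508). Mpeg1, which encodes the pore-forming protein perforin-2, differed by 0.86 ± 0.16 (SE, adjusted p = 0.0839). Trem2 was called in 8 and Mpeg1 in 3 of 21 alternatives. On the 6 arrays 9 of the 24 were called, all as higher, against 1.53% of all genes. Without SOD1G93A replicate 1 the count was 8, against 1.17% of all genes. The arrays left out held the lowest SOD1G93A and the highest wild-type score of this list, so leaving them out widens its difference by construction. These calls are therefore no independent support for a difference.

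Markers of resident macrophages other than the members had differences of both signs. Of 19 that passed, 9 differences were positive and 10 negative, with a median of -0.12 and 0 called. On the 6 arrays 12 were positive and 7 negative, with a median of 0.03. Siglec1 was called there as higher in SOD1G93A, where 1.53% of all genes were called. On all 8 arrays Siglec1, the sialoadhesin gene, differed by 0.54 ± 0.14 (SE, limma adjusted p = 0.191) and was well above background on all 4 SOD1G93A arrays and on 1 of 4 wild-type arrays. Mgl2, a lectin gene, differed by -0.33 ± 0.11 (SE, adjusted p = 0.321). The difference between the lists was not tested. Of 16 genes of monocytes and neutrophils, 9 were not well above background in nerve on any array, including S100a8, Ngp, Camp, Ltf, Mpo and Cxcr2, while all 16 were above it on all 8 arrays in the reference. The 7 that passed had a median difference of -0.36, all 7 negative and 0 called. Among these 7, S100a9 and Csf3r were well above background in nerve on all 8 arrays.

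**Figure D5:**
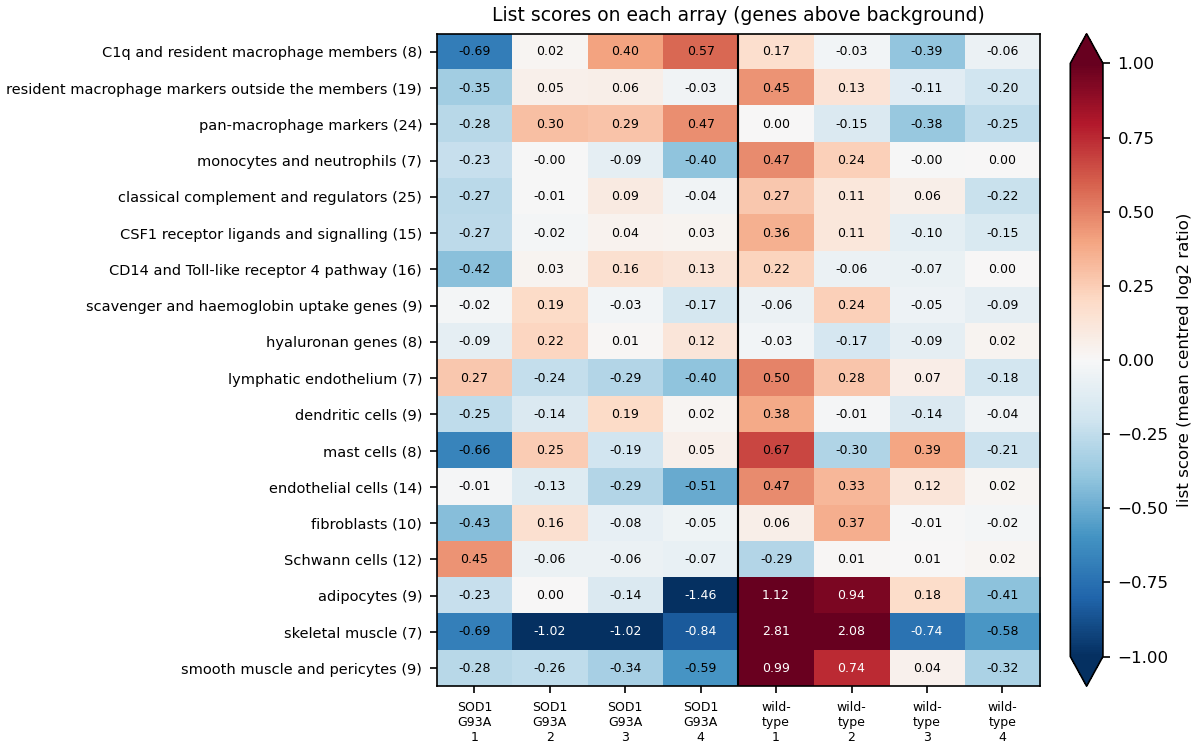
Score of each list with at least 5 genes above background (rows, with the number of genes in parentheses) on each array (columns, SOD1G93A left and wild-type right). A score is the mean over the list's genes of the log2 ratio centred on each gene's mean over the 8 arrays, and colours stop at -1 and 1. The members run from -0.69 to 0.57 in SOD1G93A and from -0.39 to 0.17 in wild-type nerves.

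In the rest of the complement pathway most differences were negative and none was called. Of 25 complement genes and regulators that passed, 7 differences were positive and 18 negative, with a median of -0.12 and 0 called. On the 6 arrays numbered 2 to 4 the lean was weaker, with 11 positive and 14 negative, a median of -0.02 and 0 called. Cfi, the inhibitor that cleaves C3b and C4b, differed by 0.46 ± 0.24 (SE, limma adjusted p = 0.514), and Cr1l, a membrane regulator, by -0.20 ± 0.12 (SE, adjusted p = 0.561). Cfi was well above background on only 3 of 4 SOD1G93A and 2 of 4 wild-type arrays. C1s, the protease of the C1 complex, differed by -0.30 ± 0.31, C4b by 0.15 ± 0.15 and C3 by -0.51 ± 0.32 (SE), and these 3 were chosen after their values were seen. C6, C8a, C8b and C9 of the terminal complex were not well above background in nerve on any array. Hc of the same complex was above it on all 8 arrays, and C7 and C8g were on 4 SOD1G93A and 3 wild-type arrays.

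Of 15 genes of CSF1 receptor ligands and signalling, 4 differences were positive and 11 negative, with a median of -0.08 and 0 called. On the 6 arrays numbered 2 to 4, 7 were positive and 8 negative, with a median of -0.05 and 0 called. The ligands Il34 and Csf1, named here after their values were seen, differed by -0.03 ± 0.17 and 0.02 ± 0.09 (SE). Il34 averaged a log2 ratio of 3.46 ± 0.31 in SOD1G93A and 3.49 ± 0.23 in wild-type nerves (SD, n = 4 each). Csf2ra, a chain of the GM-CSF receptor, differed by -0.29 ± 0.12 (SE, adjusted p = 0.417), and Etv3, a transcriptional repressor, by -0.18 ± 0.08 (SE, adjusted p = 0.47).

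Around Cd14, 16 genes of the Toll-like receptor 4 pathway passed, 6 with a positive and 10 with a negative difference, a median of -0.02 and 0 called. On the 6 arrays numbered 2 to 4 the balance turned to 11 positive and 5 negative, with a median of 0.08 and 0 called. Tlr6 differed by -0.53 ± 0.15 (SE, adjusted p = 0.232) and Tlr1 by -0.32 ± 0.17 (SE, adjusted p = 0.508), both well above background on 2 of 4 SOD1G93A and 4 of 4 wild-type arrays. These encode partners of Toll-like receptor 2. Tnf and Il1b, the inflammatory cytokines at the end of the pathway, were not well above background in nerve on any array. Ccl2, a chemokine of the same list named here after its values were seen, was above it on all 8 arrays and differed by 0.74 ± 0.41 (SE, adjusted p = 0.529).

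Around Cd163, the scavenger and haemoglobin uptake list held 9 genes that passed, 3 positive and 6 negative, with a median of -0.06 and 0 called. Hmox1, which breaks down haem, had log2 ratios of 2.11, 2.10, 1.99 and 1.99 in SOD1G93A, against -0.07, 1.85, 1.42 and 2.16 in wild-type. Wild-type replicate 1 was far below the rest, and the difference was 0.71 ± 0.40 (SE, adjusted p = 0.538). Without wild-type replicate 1 it was 0.24. Cd36, a fatty acid and lipoprotein receptor, differed by -0.73 ± 0.35 (SE, adjusted p = 0.471).

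Around Lyve1, 8 hyaluronan genes passed, 5 positive and 3 negative, with a median of 0.05. Cd44, the main hyaluronan receptor of many cell types, was the 1 gene called in all the lists. Its log2 ratios were -0.19, -0.13, -0.35 and -0.21 in SOD1G93A, against -0.74, -1.11, -0.97 and -0.82 in wild-type, with no overlap. It rose by 0.69 ± 0.10 (SE, limma adjusted p = 0.0426), and the call held in 7 of 21 alternatives, with adjusted p from 0.00633 to 1. Has2, a hyaluronan synthase, differed by 0.42 ± 0.11 (SE, adjusted p = 0.209), also with no overlap.

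Markers of other cell types differed between the arrays as well. The endothelial list had scores of -0.51 to -0.01 in SOD1G93A and 0.02 to 0.47 in wild-type, with 13 of 14 differences negative. Skeletal muscle genes scored -1.02 to -0.69 in SOD1G93A and -0.74 to 2.81 in wild-type, and adipocyte genes -1.46 to 0.00 in SOD1G93A and -0.41 to 1.12 in wild-type. In wild-type replicates 1 and 2 the muscle score was 2.81 and 2.08, against -0.74 and -0.58 in replicates 3 and 4. The adipocyte score was 1.12, 0.94, 0.18 and -0.41 in wild-type replicates 1 to 4. Wild-type replicate 2 is among the 6 arrays numbered 2 to 4. Schwann cell genes scored 0.45 in SOD1G93A replicate 1 and -0.07 to -0.06 in the other SOD1G93A nerves, against -0.29 in wild-type replicate 1 and 0.01 to 0.02 in the other wild-type nerves. Schwann cell differences were positive for 10 of 12 genes on all 8 arrays and for 2 of 12 on the 6 arrays. The Schwann score was thus highest on the array where 7 of the 8 members were at their SOD1G93A low. Their part in the member values was not tested.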

How the data were processed

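Gene expression was measured on 8 Agilent 2-colour arrays of mouse sciatic nerve. The deposited scanner files hold spot intensity and local background intensity on a linear scale, with flags and other values that carry no scale, written by Agilent Feature Extraction 11.5.1.1 per the file headers. Version 11.0.1.1 and limma stand without a role in the submitters' processing notes. The values of the deposited series table are the authors' log10 ratios, Cy5 over Cy3, with a median of 0 on each array, and was used with the sign turned as an alternative.

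From the mean spot intensity and median background, normexp correction (offset 50) and loess within each array were run with control spots at weight 0. Spots flagged as outliers were left out, spots of a probe were averaged, and no scaling between arrays was applied. Of 55681 probes, 19836 were kept, and the kept probe brightest in Cy3 on average stood for its gene. Genotypes were compared with limma 3.58.1 under R 4.3.3, by lmFit and eBayes (2-sided, Benjamini-Hochberg over 15341 genes), and every adjusted p comes from it. Array weights used limma's arrayWeights. The replicates are biological per the labels. The number of arrays limits the precision.

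The genes named are the members, the 2 of smallest p in each list with at least 5 genes kept, called list genes and the 5 nearest to the C1q profile. Other genes were picked with their values in view. The members and lists were chosen with earlier results of these data known. The accessions of all 9 members matched RefSeq. Gene symbols are the array designer's and can be old. Exon positions of probes on mm9 were not analysed here. Alternatives covered background, normalization, filters, probe rule, variance model, array weights, replicate block and left-out arrays.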

Additional observations from a re-analysis of the deposited data

Results flagged for a closer look

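Of 134 groups of 4 arrays tested over member probes, named genes and list scores, 12 held 1 array far from the other 3, with a gap above Dixon's 95% critical value. Chance gives about 1 in 20. Among the members this was Lyve1, with a log2 ratio of -2.73 in SOD1G93A replicate 4 and -3.32 to -3.28 in the other SOD1G93A nerves.

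In SOD1G93A replicate 1, Ethe1 stood at -0.3 (others 0.56 to 0.72) and Gata2 at -1.64 (others -2 to -1.98). On the same array the score of the CSF1 receptor list was -0.26 (others -0.02 to 0.04) and that of the Schwann cell list 0.45 (others -0.07 to -0.06). In SOD1G93A replicate 4, Plin4 stood at 0.25 (others 1.8 to 2.08) and the adipocyte score at -1.46 (others -0.23 to 0). Actn3 was 0.09 in SOD1G93A replicate 3 (others 0.49 to 0.55).

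Among wild-type nerves, Trem2 was 1.15 in replicate 2 (others 0.56 to 0.62) and Mgl2 1.33 in replicate 1 (others 0.94 to 0.98). The scavenger and haemoglobin uptake score was 0.24 in replicate 2 (others -0.09 to -0.05), and the Schwann cell score -0.29 in replicate 1 (others 0 to 0.02).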

How the results depend on the processing

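The count of genes called, 25 with all arrays, was 7 with the series table and 7 with Agilent's processed signals, which hold nearly equal values. It was 1 with median centring, 13 with scale normalization, 16 with no filter on dim probes, 413 with array weights and 234 on the 6 arrays, and 3 to 180 when single arrays were left out, the highest without SOD1G93A replicate 1. The count of members called was 2 with array weights and 2 on the 6 arrays, and 0 in the other 19 alternatives. The median difference of the members, 0.103 with all arrays, ran from -0.077 to 0.42 when single arrays were left out, negative without SOD1G93A replicate 3 or 4, and was 0.482 with array weights and 0.505 on the 6 arrays. The cause of these changes was not tested.

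The sign of Mrc1 turned to -0.0047 with the series table or Agilent processed signals, -0.016 with median centring, -0.0398 with scale normalization and -0.0452 with Cy3 alone, and ran from -0.194 to 0.387 with single arrays left out. Lyve1 turned to 0.0548 with Cy3 alone, 0.055 with array weights and 0.119 on the 6 arrays (-0.263 to 0.103 with single arrays left out). Cd14 turned to 0.123 with array weights and 0.102 on the 6 arrays (-0.332 to 0.033). With single arrays left out Pf4 ran from -0.211 to 0.453 and Csf1r from -0.0141 to 0.366. C1qa, C1qb and C1qc had a positive difference in all 21 alternatives, and with single arrays left out ran from 0.275 to 0.882, 0.233 to 0.606 and 0.252 to 0.572.

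The correlations of deviations from the genotype mean were -0.164, 0.04, -0.113 and 0.103 for same-numbered arrays, and -0.214 to 0.233 for the others. With so few pairs, and deviations centred within each genotype, these values do not decide whether replicate numbers pair the arrays. With the replicate block 1 gene was called and 0 members. Cd163 could not be tested, since its signal was not well above background.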

Other observations

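Markers of other immune cells were in part below background, and none that passed the filter was called. Of 16 genes of T, natural killer and B cells, 8 were not well above background in nerve on any array, among them Cd3d and Cd8a. The filter was passed by 4, with 0 called. These were Cd3e, Cd4 and Nkg7, well above background on all 8 arrays, and Cd79b, on 2 SOD1G93A and 3 wild-type arrays. Dendritic cell and antigen presentation genes passed for 9 of 15, with 1 positive and 8 negative differences, a median of -0.14 and 0 called. On the 6 arrays numbered 2 to 4 the direction turned, with 5 positive and 4 negative and a median of 0.12. Cd74, the invariant chain, had a log2 ratio of 2.23 ± 0.29 in SOD1G93A and 2.53 ± 0.22 in wild-type nerves (SD, n = 4 each), a difference of -0.30 ± 0.16 (SE, limma adjusted p = 0.514). Cd83 differed by 0.43 ± 0.22 (SE, adjusted p = 0.488). Of 8 mast cell genes that passed, all 8 differences were negative and 0 were called, with a median of -0.25. On the 6 arrays 6 were positive and 2 negative, with a median of 0.16. Hdc, the histamine-forming enzyme, differed by -0.27 ± 0.13 (SE, adjusted p = 0.487). The mast cell score ran from -0.66 to 0.25 in SOD1G93A and from -0.30 to 0.67 in wild-type nerves.

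Among the genes of smallest p in the monocyte, lymphatic and endothelial lists, Ly6c1, also expressed by endothelium, differed by -0.82 ± 0.26 (SE, adjusted p = 0.284). Ly6g differed by -0.46 ± 0.16 (SE, adjusted p = 0.322) and was well above background on 1 SOD1G93A and 3 wild-type arrays. Figf, a lymphatic growth factor gene, differed by -0.90 ± 0.23 and Sox18 by -0.47 ± 0.22 (SE). Robo4 differed by -0.75 ± 0.13 (SE, adjusted p = 0.0775) and Esam by -0.61 ± 0.14 (SE, adjusted p = 0.136). Ngfr, a receptor of immature and repair Schwann cells, differed by 0.70 ± 0.11 (SE, adjusted p = 0.0547), while Egr2, a regulator of myelination, differed by -0.46 ± 0.15 (SE, adjusted p = 0.286).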
